A study of Mus musculus with 32 samples.

Results

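The transcripts uc009ozx.3 (2104 nt) and uc008cqz.1 (2507 nt) were 2 of the 51884 transcript models quantified in the series. Both were chosen from their measured values. In RNA pulled down with biotinylated proteins, their level with PSD95-TurboID relative to Pan-TurboID was lower in depolarized than in resting neurons, and they were 2 of the 4 transcripts that fell in that contrast at a limma adjusted p under 0.05 among 32553 tested. The values of that contrast, and of each of its parts, are therefore given as descriptions without a test. The call that chose them is itself dependent on the setting: with each transcript it held in 4 of 15 alternative settings and was lost in 11, edgeR and the removal of any 1 replicate among them. The files identify transcripts by UCSC identifiers, 0 of which matched the gene tables used here. Neither transcript is given a gene name, a role, a genome position or a sequence here, and the length is no identifier either, since 10 models in the files were 2104 nt long and 20 were 2507 nt long.

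The samples were cultures of primary cortical neurons from embryonic CD-1 mice, transduced with a doxycycline-inducible lentivirus for PSD95-TurboID or for Pan-TurboID. In every group, cycloheximide was given for 2 minutes and biotin then labelled proteins for 30 minutes. Depolarized neurons were held in tetrodotoxin and DL-AP5 for 2 hours, then in 55 mM KCl for 1 hour, and recovered for 30 minutes, and the labels name no silencing for resting neurons. UV crosslinking and streptavidin beads gave the pulldown, and a share of each lysate was the input, so depolarized and resting state, PSD95 and Pan construct, and pulldown and input fraction made 8 groups of 4 libraries. The construct came from a virus and, by the study's methods, carried rat PSD95 with PSD95 UTRs, so labelling reports the place of an expressed fusion protein. The replicate number marks cultures processed together.

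PSD95 is a scaffold protein of the postsynaptic density, the protein layer under excitatory synapses on dendritic spines. TurboID is a biotin ligase that tags proteins in its close surroundings, so RNA crosslinked to tagged proteins comes from near PSD95 with the fusion and from the whole neuron with the untargeted Pan form. Some neuronal mRNAs are carried into dendrites while most stay largely in the cell body, and a high concentration of potassium opens voltage-gated calcium channels and changes both transcription and the translation of mRNAs already in place.

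Libraries held 2949123 to 19323465 estimated counts, with 9773 to 31360 transcripts at 10 counts or more. The transcript uc009sgd.1 alone took 2.08% to 84.8% of the counts, over 50% in 6 libraries, of which 5 were of replicate 3 and 1 of replicate 4. Results were also computed without these 6 libraries and with library totals that leave out the 3 most abundant transcripts. CPM on plain library totals and TPM both count uc009sgd.1 in the total, and values on those scales stand beside the results whose sign they change. Descriptions attached to 8 libraries, all of replicate 2, name the opposite state to their titles, and the titles were followed here.

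Both transcripts were abundant in every library. By TPM, which accounts for transcript length, uc009ozx.3 ranked 12 to 64 with a median of 30 among the 51884 models, and uc008cqz.1 ranked 25 to 117 with a median of 65. Their estimated counts ran from 898 to 30450 for uc009ozx.3 and from 525 to 23160 for uc008cqz.1. At the lowest count, counting alone gives an error of 3.34% for uc009ozx.3 and 4.36% for uc008cqz.1, which is smaller than the spread between replicates below. The counts of uc008cqz.1 were whole, within 0.001, in 32 of 32 libraries, so no read was split between it and another model. Those of uc009ozx.3 were whole in 3 of 32, so its values include reads that were shared out between it and other models by the authors' estimate.

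The contrast that chose the transcripts is shown first, as levels in CPM, read counts scaled to an equal library total with TMM factors, with replicates 1 to 4 in order. In depolarized PSD95 pulldowns uc009ozx.3 had 579, 629.8, 578 and 764 CPM, against 1077, 746, 719 and 1286 CPM in resting PSD95 pulldowns. In depolarized Pan pulldowns it had 868, 876, 759 and 1037 CPM, against 900.5, 778, 649 and 1107 CPM in resting Pan pulldowns. The PSD95 libraries were thus lower after depolarization in each of the 4 replicates, although the highest depolarized value lay above the lowest resting one, whereas the Pan libraries moved either way. The means were 638 ± 87.6 CPM (SD, n = 4) in depolarized and 957 ± 273 in resting PSD95 pulldowns, and 885 ± 114 in depolarized and 859 ± 195 in resting Pan pulldowns.

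For uc008cqz.1 the same contrast had a different make-up in pulldown levels, before any comparison with inputs. It had 572, 616, 538 and 736 CPM in depolarized PSD95 pulldowns, against 663, 576, 420.5 and 871 CPM in resting PSD95 pulldowns. In depolarized Pan pulldowns it had 778, 856, 603 and 974 CPM, against 605, 510.3, 483.5 and 745 CPM in resting Pan pulldowns. Here it was the Pan libraries that differed between states, higher after depolarization in each of the 4 replicates, while the PSD95 libraries were higher in 2 replicates and lower in the others. The means were 616 ± 86.5 (SD, n = 4) in depolarized and 633 ± 188 CPM in resting PSD95 pulldowns, and 803 ± 156 in depolarized and 586 ± 118 CPM in resting Pan pulldowns.

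**Figure D1:**
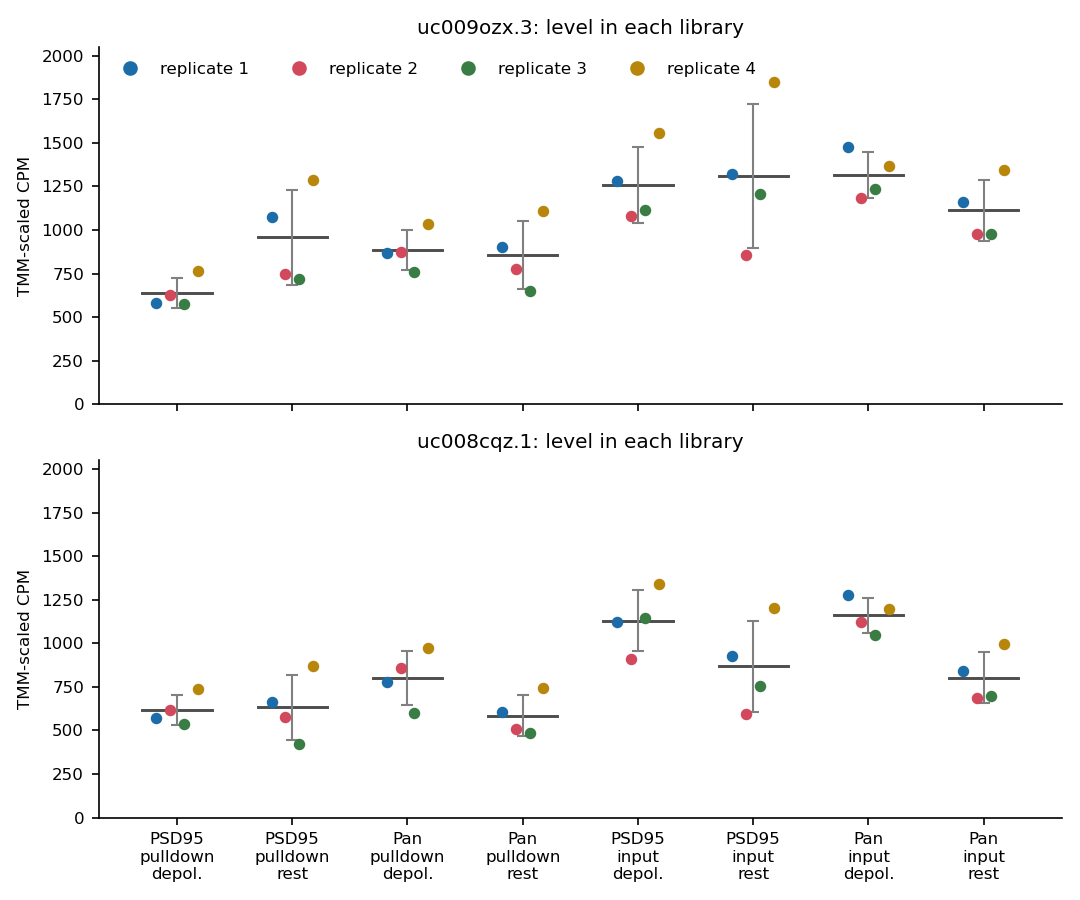
Level of each transcript in TMM-scaled CPM (vertical axes) in every library of the 8 groups; each point is 1 library, its colour the replicate number, each horizontal line a group mean and each bar 1 SD of 4 libraries. The lowest group mean of uc009ozx.3 is 638 CPM in the depolarized PSD95 pulldowns, while for uc008cqz.1 the resting Pan pulldowns have the lowest mean, at 586 CPM.

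Taken as PSD95 over Pan within a replicate, uc009ozx.3 in depolarized pulldowns was at −0.58, −0.48, −0.39 and −0.44 on the log2 scale, against 0.26, −0.06, 0.15 and 0.22 in resting pulldowns. For uc008cqz.1 the log2 ratios were −0.44, −0.47, −0.16 and −0.40 in depolarized pulldowns, against 0.13, 0.17, −0.20 and 0.23 in resting pulldowns. The resting values thus lay on both sides of 0, while the depolarized values were negative in 4 of 4 replicates for both. The size of the change between states was −0.84, −0.41, −0.54 and −0.66 for uc009ozx.3, and −0.58, −0.65, 0.04 and −0.63 for uc008cqz.1, whose replicate 3 did not share the direction. The limma estimates of this change were −0.69 ± 0.09 (SE) for uc009ozx.3 and −0.53 ± 0.07 for uc008cqz.1, against a median of 0.12 over the 32553 transcripts tested, and 0.0215% of transcripts were called in either direction. Without replicate 1 the estimate for uc009ozx.3 was −0.46. The mean over replicates was −0.36 ± 0.53 and −0.20 ± 0.27 for the 2 transcripts in CPM on plain library totals (SD, n = 4). In TPM it was 0.37 ± 1.47 and 0.53 ± 1.18. The sign of the mean depends on the scaling, and on these scales each mean was smaller than its SD.

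**Figure D2:**
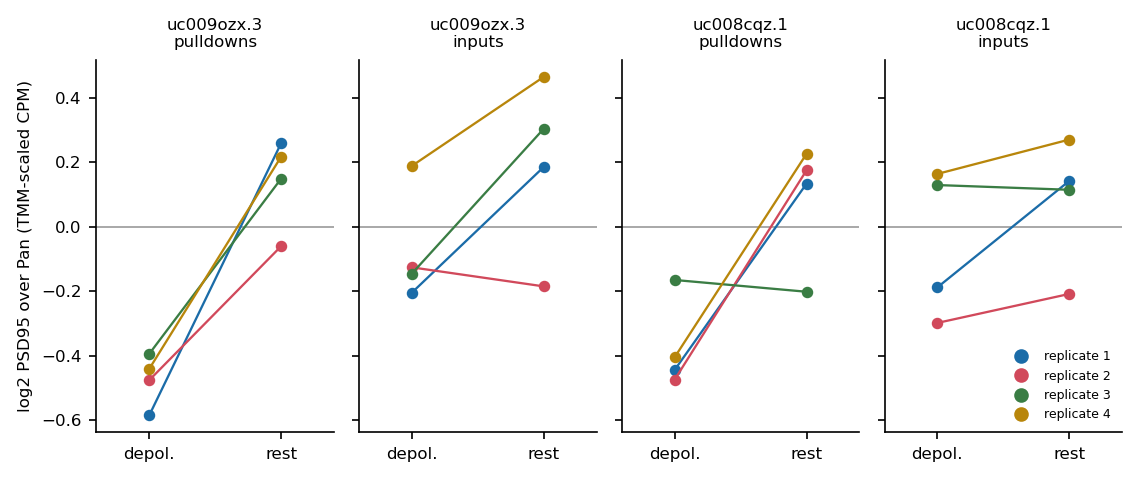
log2 ratio of PSD95 to Pan in TMM-scaled CPM (vertical axis) in depolarized and resting neurons, for each transcript in pulldowns and in inputs; each line joins the 2 states of 1 replicate. In the pulldown panels the depolarized points lie between −0.58 and −0.16, and in the input panels the replicates spread over both sides of 0 in both states.

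The transcripts nearest to the threshold of that contrast give its scale. Inside it, next to the pair described here, stood uc008cal.1 (524 nt) at −0.97 and uc029rmc.2 (1036 nt) at −0.68 on the log2 scale. Just outside it stood uc007rps.1 (6885 nt) at −0.89 and uc007hnk.2 (449 nt) at −1.07. Transcripts with larger log2 changes than the pair thus lay on both sides of the threshold.

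The inputs were not used to choose the transcripts. They were, however, shares of the same lysates as the pulldowns, so they are not independent of the libraries that chose the pair. In inputs uc009ozx.3 had 1281, 1083, 1117 and 1558 CPM in depolarized neurons with PSD95, against 1476, 1181, 1235 and 1368 CPM in depolarized neurons with Pan. In resting neurons it had 1323, 858, 1205.5 and 1851 CPM with PSD95, against 1163.5, 975, 977 and 1341.5 CPM with Pan. These ranges overlapped in both states. The log2 ratio of PSD95 to Pan was −0.20, −0.13, −0.14 and 0.19 in depolarized and 0.19, −0.18, 0.30 and 0.46 in resting inputs, and neither state passed the limma test, with adjusted p of 0.235 and 0.109. Of the 27887 transcripts tested, 0.0359% were called in each state.

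The change of that input ratio with depolarization was −0.39, 0.06, −0.45 and −0.28 for uc009ozx.3, below 0 in 3 of 4 replicates. It passed the limma test at −0.48 ± 0.07 (SE) with an adjusted p of 0.036, in a comparison where 0.0502% of transcripts, 14 in all, were called. With every library weighted equally, an alternative chosen after seeing the data, it was −0.28 ± 0.14 with a limma adjusted p of 0.819, and edgeR gave an adjusted p of 1. The call was lost in 12 of 15 alternative settings, including the removal of any 1 of the 4 replicates. The limma estimate lies outside the range of the 4 replicate values, which carry no weights. Their mean was 0.14 ± 1.92 in CPM on plain library totals and 0.51 ± 2.57 in TPM (SD, n = 4). These means lie on the other side of 0 but are smaller than their SD.

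For uc008cqz.1 the inputs held 1121.5, 912, 1143 and 1342 CPM in depolarized neurons with PSD95, against 1277, 1121, 1045.5 and 1198 CPM in depolarized neurons with Pan. In resting inputs it had 925, 592, 753 and 1201 CPM with PSD95, against 838, 684, 696 and 996 CPM with Pan. The constructs overlapped in both states here too, and the limma adjusted p was 0.183 in depolarized and 0.42 in resting inputs. The change of the ratio with depolarization was −0.33, −0.09, 0.01 and −0.11 over the replicates, and the limma estimate of −0.37 ± 0.06 (SE) had an adjusted p of 0.0696. That estimate too lies outside the range of the 4 replicate values, whose mean was 0.28 ± 1.82 in CPM on plain totals and 0.64 ± 2.44 in TPM (SD).

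The change of PSD95 over Pan in pulldowns was also set against that in inputs. The pulldown change minus the input change was −0.45, −0.47, −0.09 and −0.38 on the log2 scale for uc009ozx.3 and −0.25, −0.56, 0.02 and −0.52 for uc008cqz.1. The limma estimates were −0.22 ± 0.10 (SE) for uc009ozx.3 and −0.14 ± 0.09 for uc008cqz.1, given with no test because they hold the contrast that chose the transcripts. Without replicate 1 they were 0.17 and 0.08, on the other side of 0. Of 34696 transcripts tested for this difference, limma called 0%, with 1783 at an unadjusted p under 0.05, while edgeR called 0 and DESeq2 called 530.

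With TMM scaling, the level of uc008cqz.1 in inputs was higher in depolarized than in resting neurons. With PSD95 the means were 1129.6 ± 176 in depolarized and 868 ± 260.2 CPM in resting inputs (SD, n = 4), and the ranges overlapped. With Pan the depolarized inputs, at 1045.5 to 1277 CPM, all lay above the resting ones, at 684 to 996 CPM, and the means were 1160.5 ± 99.7 in depolarized and 803 ± 146 CPM in resting inputs. Averaged over the constructs, the log2 change was 0.44, 0.67, 0.60 and 0.21 over the replicates, higher in 4 of 4. The limma estimate was 0.44 ± 0.03 (SE) with an adjusted p of 1.41e-05, in a comparison where 6.19% of 27887 transcripts were called in either direction and 3.45% as higher. With equal weights it was 0.48 ± 0.07 with a limma adjusted p of 0.00637, and edgeR gave 0.0133. The call was lost without replicate 1 (0.42, limma adjusted p of 0.0581), without the replicate block (0.39, 0.0994) and with the states in the descriptions (0.34, 0.0802). With totals that leave out the 3 most abundant transcripts it was 0.43, called by limma with an adjusted p of 2.03e-05. In CPM on plain totals, however, the mean over replicates was −0.23 ± 0.92 and in TPM −0.60 ± 1.26 (SD, n = 4), higher in 2 of 4 replicates on both scales, so the direction depends on the scaling. In these bulk samples more RNA per cell and a larger share of cells that hold the transcript cannot be told apart.

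For uc009ozx.3 the input levels of the states differed by less than the replicate spread with PSD95 and by more with Pan. Its means were 1259.7 ± 217 in depolarized and 1309 ± 411 CPM in resting PSD95 inputs (SD, n = 4), and 1315 ± 133 in depolarized and 1114 ± 175 CPM in resting Pan inputs. The log2 change averaged over constructs was 0.15, 0.31, 0.11 and −0.11, and the limma estimate of 0.11 ± 0.03 (SE) had an adjusted p of 0.0695. With 4 alternative settings this change passed the threshold, without exceeding 0.19. On plain totals the mean over replicates was −0.60 ± 0.95 and in TPM −0.97 ± 1.29 (SD, n = 4).

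Split by construct, the input change of uc008cqz.1 was 0.28, 0.62, 0.60 and 0.16 with PSD95 and 0.61, 0.71, 0.59 and 0.27 with Pan on the log2 scale. It was called by limma with PSD95 (0.26 ± 0.04 (SE), adjusted p of 0.00886) and with Pan (0.63 ± 0.05, adjusted p of 3.68e-05), where 1.99% of transcripts were called with PSD95 and 3.11% with Pan. With equal weights the PSD95 value was 0.41 with a limma adjusted p of 0.187, and its call was lost without replicate 1, 2 or 3. The Pan call was lost without replicate 1 (0.59, limma adjusted p of 0.151). The transcript uc009ozx.3 changed by −0.05, 0.34, −0.11 and −0.25 with PSD95 and by 0.34, 0.28, 0.34 and 0.03 with Pan. Its Pan change was called at 0.35 ± 0.05 with a limma adjusted p of 0.00409, against 0.26 and 0.286 with equal weights, and was lost without replicate 1, 2 or 3. Its PSD95 change was not called, at −0.13 ± 0.04 with a limma adjusted p of 0.198.

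In pulldowns the average over both constructs is another combination than the choosing contrast, but it comes from the same values. With unequal weights it is not independent of that contrast, so its p-values are no separate support. For uc009ozx.3 the mean change over replicates was −0.55 with PSD95, a part of the choosing contrast, and 0.062 with Pan. With TMM scaling the 2 transcripts moved in opposite directions. Over the replicates the log2 change with depolarization was −0.48, −0.04, −0.04 and −0.42 for uc009ozx.3, lower in 4 of 4, and 0.08, 0.42, 0.34 and 0.07 for uc008cqz.1, higher in 4 of 4. The limma estimates were −0.39 ± 0.05 (SE) with an adjusted p of 0.000178 for uc009ozx.3 and 0.13 ± 0.03 with an adjusted p of 0.0243 for uc008cqz.1. In this comparison 13.8% of transcripts were called, so a call is common. With equal weights the changes were −0.24 and 0.23 with limma adjusted p of 0.0859 and 0.0782, and edgeR gave 0.137 and 0.129. For uc008cqz.1 the call was also lost without any 1 of the 4 replicates, the estimates running from 0.08 to 0.20. For uc009ozx.3 it was lost without replicate 1, at −0.26. On plain totals the means over replicates were −0.040 ± 0.25 for uc009ozx.3 and 0.43 ± 0.20 for uc008cqz.1 (SD, n = 4), and in TPM they were 0.046 ± 0.55 and 0.52 ± 0.54, so on neither scale did the change of uc009ozx.3 exceed the replicate spread.

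Within a construct these pulldown changes are parts of the choosing contrast. With PSD95 uc009ozx.3 changed by −0.90, −0.24, −0.32 and −0.75 on the log2 scale and uc008cqz.1 by −0.21, 0.10, 0.36 and −0.24. With Pan uc009ozx.3 changed by −0.05, 0.17, 0.23 and −0.09 and uc008cqz.1 by 0.36, 0.75, 0.32 and 0.39. In TMM-scaled pulldown levels, the fall in PSD95 over Pan was mainly a lower PSD95 level for uc009ozx.3. For uc008cqz.1 it was mainly a higher Pan level. Inputs of uc008cqz.1 also rose, on average by 0.42 with PSD95 and 0.54 with Pan. Its mean log2 ratio of pulldown to input was −0.87 in depolarized and −0.46 in resting neurons with PSD95, and −0.55 and −0.46 with Pan. For uc009ozx.3 these ratios were −0.98 and −0.44 with PSD95, and −0.57 and −0.39 with Pan. With this scaling the ratio to input thus moved more with PSD95 than with Pan for both transcripts.

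With TMM scaling, depolarization went with a lower pulldown level relative to input for both transcripts. The change in pulldowns minus that in inputs was −0.62, −0.34, −0.16 and −0.31 on the log2 scale for uc009ozx.3 and −0.37, −0.25, −0.26 and −0.14 for uc008cqz.1, in 4 of 4 replicates below 0. With limma it was −0.53 ± 0.05 (SE) for uc009ozx.3, with an adjusted p of 1.49e-06 among 34696 transcripts tested. The contrast holds the pulldown values that chose the pair, so its p-values are not independent of that choice. For uc008cqz.1 it was −0.30 ± 0.04 with a limma adjusted p of 0.00219. Limma called 0.161% of transcripts, 56 in all, of which 50 were lower. With equal weights the values were −0.36 ± 0.11 and −0.25 ± 0.12 with limma adjusted p of 0.635 and 0.837, and edgeR gave 0.695 and 0.885. edgeR and the equally weighted limma each called 0 transcripts here, and DESeq2 called 628, among them uc009ozx.3 at an adjusted p of 0.0187 but not uc008cqz.1 at 0.375. Without replicate 1 the limma estimates were −0.27 and −0.22 and neither was called, and the call of uc008cqz.1 was also lost without replicate 3 (−0.30) and without replicate 4 (−0.35). With totals that leave out the 3 most abundant transcripts the limma values were −0.41 (adjusted p of 0.00787) and −0.17 (0.106). On plain totals the mean over replicates was above 0, at 0.56 ± 1.18 for uc009ozx.3 and 0.66 ± 1.11 for uc008cqz.1 (SD, n = 4), and in TPM it was 1.01 ± 1.82 and 1.12 ± 1.77, with 2 of 4 replicates above 0 in each case. The direction of this contrast therefore depends on the scaling.

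The precision weights behind these estimates were very unequal for such abundant transcripts. In the fit of all 32 libraries, replicate 4 held 87.4% and replicate 1 held 11.7% of the weight of uc009ozx.3, and for uc008cqz.1 replicate 4 held 65.4% and replicate 1 held 30.5%. For uc009ozx.3 the resting Pan pulldown of replicate 4 alone held 69.6%, and the depolarized one 12.3%. The PSD95 pulldowns of replicate 4 held 0.063% in resting and 0.035% in depolarized neurons. In the fit of the 16 inputs replicate 1 held 51.6% and replicate 4 held 36.1% of the weight of uc009ozx.3. The weight thus lay mainly in 2 of the 4 replicates, and the standard errors are smaller than those with equal weights. A share of the weight is not a share of each contrast. The change in pulldowns minus that in inputs for uc009ozx.3 was −0.27 without replicate 1 and −0.58 without replicate 4, by limma.

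**Figure D3:**
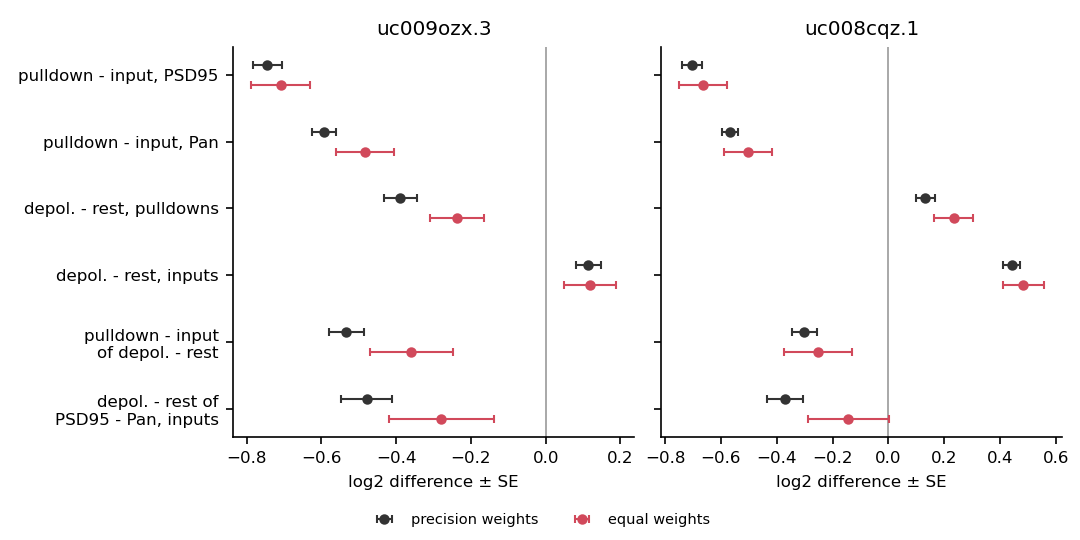
log2 differences (horizontal axes) for each transcript in 6 comparisons, with precision weights (black) and with equal weights (red); points are limma estimates and bars are 1 SE. With TMM scaling, pulldown against input and the input change of uc008cqz.1 stay several SE from 0 with both weightings. The other estimates lie closer to 0 with equal weights or have wider bars. In CPM on plain totals and in TPM the Pan ratio of pulldown to input averaged 0.17 to 0.90. On those scales the input change of uc008cqz.1 averaged −0.60 to −0.23. With totals that leave out the 3 most abundant transcripts and no TMM, the Pan ratios were −0.39 and −0.34. That input change was then 0.43.

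With TMM scaling, both transcripts were lower in pulldowns than in inputs with both constructs. With PSD95 the log2 ratio of pulldown to input for uc009ozx.3 was −1.15, −0.78, −0.95 and −1.03 in depolarized and −0.30, −0.20, −0.74 and −0.53 in resting neurons. For uc008cqz.1 with PSD95 it was −0.97, −0.57, −1.09 and −0.87 in depolarized and −0.48, −0.04, −0.84 and −0.46 in resting neurons. All of these values were below 0, and the depolarized value was the lower in each replicate.

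With Pan the log2 ratio for uc009ozx.3 was −0.77, −0.43, −0.70 and −0.40 in depolarized and −0.37, −0.33, −0.59 and −0.28 in resting neurons. For uc008cqz.1 with Pan it was −0.71, −0.39, −0.79 and −0.30 in depolarized and −0.47, −0.42, −0.52 and −0.42 in resting neurons, where the lower value was the resting one in 2 of 4 replicates. With TMM scaling the ratio was thus below 0 at rest as well, and with the untargeted construct as well as with PSD95.

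Averaged over states, the limma difference with PSD95 was −0.74 ± 0.04 (SE) for uc009ozx.3 and −0.70 ± 0.04 for uc008cqz.1, with adjusted p of 1.67e-12 and 1.55e-12. With Pan it was −0.59 ± 0.03 for uc009ozx.3 and −0.57 ± 0.03 for uc008cqz.1, with limma adjusted p of 2.94e-12 and 1.94e-12. These differences hold the pulldown values that chose the pair. With unequal weights they are not independent of that choice, so their p-values are no separate support. Such calls were common, since 20.4% of 34696 transcripts were called with PSD95 and 18.2% with Pan, and 10% were called as lower with PSD95 and 8.24% with Pan. With equal weights the 4 values ran from −0.71 to −0.48, with limma adjusted p from 8.92e-07 to 0.000336. Over 15 alternative settings the only one of these 4 calls to be lost was uc009ozx.3 with Pan, at −0.36 and a limma adjusted p of 0.058 without the replicate block. With totals that leave out the 3 most abundant transcripts the limma values were −0.60 and −0.58 with PSD95 and −0.39 and −0.34 with Pan, all called.

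On the scales whose totals include uc009sgd.1 the ratio with Pan changed sign. Its mean over replicates was 0.19 ± 0.96 for uc009ozx.3 and 0.17 ± 0.96 for uc008cqz.1 in CPM on plain totals (SD, n = 4), above 0 in 1 of 4 replicates, and 0.90 ± 1.62 and 0.88 ± 1.62 in TPM, above 0 in 3 of 4. With PSD95 it stayed below 0, at −0.53 ± 0.46 and −0.48 ± 0.56 on plain totals and −0.18 ± 1.12 and −0.14 ± 1.22 in TPM, with 1 of 4 replicates above 0 in each case. The lower level in Pan pulldowns therefore holds with TMM, RLE or totals that leave out the most abundant transcripts, and not with plain totals or TPM.

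**Figure D4:**
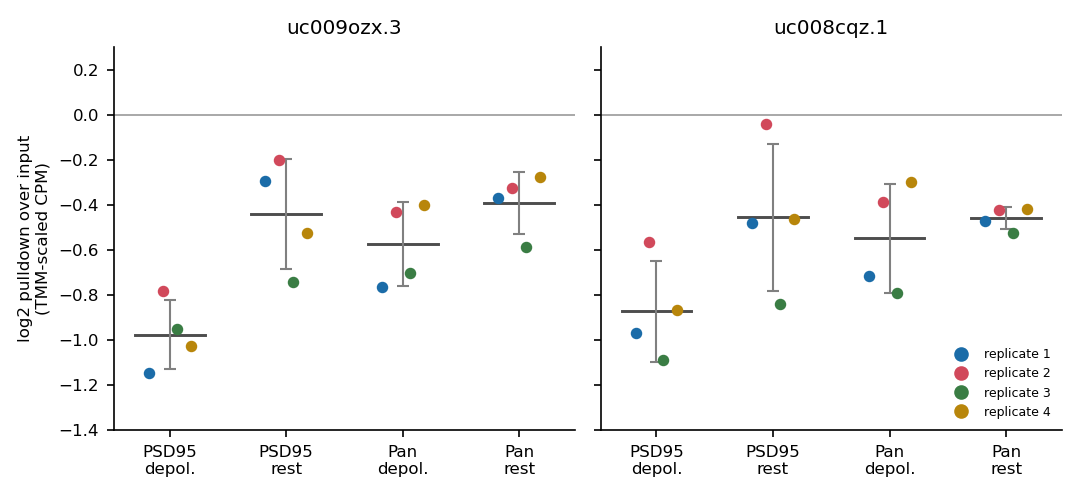
log2 ratio of pulldown to input in TMM-scaled CPM (vertical axis) for each transcript, by construct and state; points are replicates, horizontal lines are means and bars are 1 SD of 4 replicates. With TMM scaling all 32 points lie below 0, from −1.15 for uc009ozx.3 with PSD95 in depolarized neurons to −0.04 for uc008cqz.1 with PSD95 at rest, whereas in CPM on plain totals and in TPM the mean ratio with Pan was above 0, at 0.17 to 0.90.

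The ratio of the pair to each other within a library does not depend on how libraries are scaled. By TPM, uc009ozx.3 stood above uc008cqz.1 in all 32 libraries. Its ratio to uc008cqz.1 was 1.18 to 1.52 in the 16 depolarized libraries and 1.56 to 2.07 in the 16 resting ones, so that the states did not overlap across fractions and constructs. In pulldowns the ratio was 1.25 ± 0.03 (SD, n = 4) in depolarized and 1.84 ± 0.22 in resting neurons with PSD95, and 1.35 ± 0.12 in depolarized and 1.76 ± 0.10 in resting neurons with Pan. In inputs it was 1.35 ± 0.11 in depolarized and 1.82 ± 0.10 in resting neurons with PSD95, and 1.37 ± 0.07 in depolarized and 1.68 ± 0.04 in resting neurons with Pan.

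The ratio was lower in the depolarized library in 16 of 16 pairs matched by construct, fraction and replicate, by 0.09 to 0.71 on the log2 scale. Averaged over the 4 pairs of a replicate, the log2 change was −0.42, −0.41, −0.43 and −0.41, a mean of −0.42 ± 0.01 (SD, n = 4). An exact two-sided sign-flip test over the 4 replicates gave p = 0.125, the smallest value that 4 replicates allow. This test could not pass a threshold of 0.05. Each replicate mean also holds pulldown pairs, whose values chose the transcripts, so the test is no separate support. Replicate 2, whose descriptions name the opposite states, changed by −0.41 under its titles, between the values of replicates 1 and 4. The mean change was −0.36 in inputs and −0.47 in pulldowns, with 8 of 8 pairs lower in each. The inputs took no part in choosing the pair but came from the same lysates as the pulldowns. In these libraries the ratio was thus lower after depolarization in inputs and pulldowns alike.

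**Figure D5:**
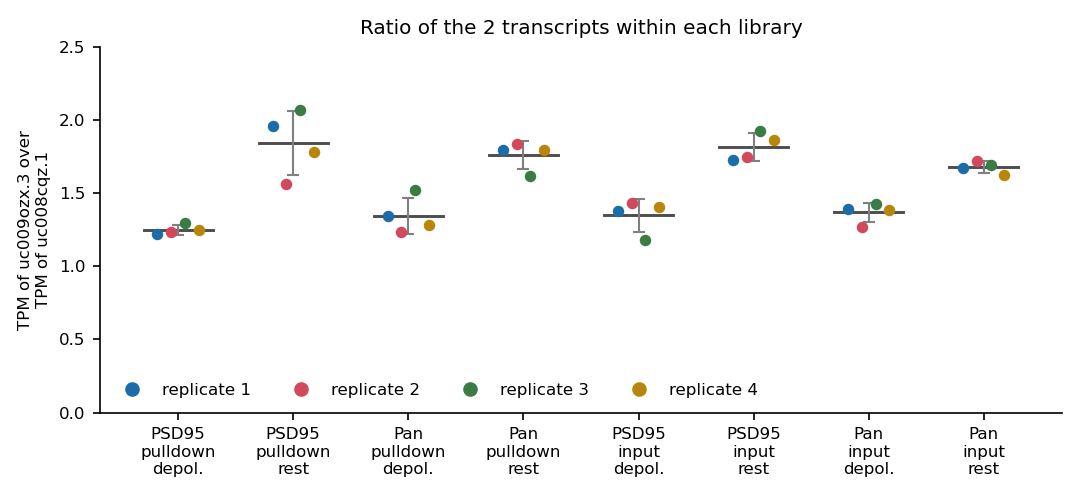
TPM of uc009ozx.3 divided by TPM of uc008cqz.1 (vertical axis, from 0) in every library of the 8 groups; each point is 1 library, its colour the replicate number, each horizontal line a group mean and each bar 1 SD of 4 libraries. Each depolarized group, with values of 1.18 to 1.52, lies below each resting group, with values of 1.56 to 2.07.

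The transcripts with the most similar pattern were sought by Pearson r of log2 CPM over the 32 libraries, after the mean of each replicate number was subtracted, among 2631 transcripts with a mean of at least 50 CPM. These libraries share scaling and depth, and r is given as a description. Nearest to uc009ozx.3 were uc008ciq.2 (2645 nt, r = 0.935), uc007fgy.2 (4157 nt, r = 0.925) and uc007wxp.1 (2768 nt, r = 0.92). Nearest to uc008cqz.1 were uc007yqq.2 (2961 nt, r = 0.962), uc009qbn.1 (1422 nt, r = 0.96) and uc008zyz.1 (1282 nt, r = 0.958). The pair correlated with each other at r = 0.814, which placed uc008cqz.1 at rank 138 for uc009ozx.3 and uc009ozx.3 at rank 236 for uc008cqz.1. Without subtracting the replicate means, r was 0.857, at rank 6 for uc009ozx.3 and rank 30 for uc008cqz.1.

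The neighbours were chosen on these same libraries, so likeness in their group differences follows from the choice and is given as a description, with TMM scaling. The log2 change with depolarization in inputs was 0.35 for uc007yqq.2, 0.44 for uc009qbn.1 and 0.51 for uc008zyz.1, beside 0.44 for uc008cqz.1, and in pulldowns it was 0.13, 0.27 and 0.20, beside 0.13. For uc008ciq.2, uc007fgy.2 and uc007wxp.1 the log2 change in pulldowns was −0.16, −0.26 and −0.25, beside −0.39 for uc009ozx.3, while in inputs it was 0.26, 0.07 and −0.12, beside 0.11. The neighbours of each transcript depend on the centring, since without it only uc007fgy.2 was again among the nearest 3 of uc009ozx.3. The nearest 3 of uc008cqz.1 were then uc007ket.2, uc033iut.1 and uc008olh.1.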

How the data were processed

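RNA of 32 libraries was compared, 4 in each of 8 groups taken from the sample titles. The authors quantified reads with salmon against UCSC knownGene models of mm10 (version and options not given in the sources used here). Each deposited file holds expected counts, where a read matching more than 1 model is divided among them, and TPM, which the authors' tool scaled to 1000000 in a library. DESeq and limma are also named in the submitters' processing notes.

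Expected counts were rounded and tested with limma 3.58.1 (voomWithQualityWeights, R 4.3.3) after TMM scaling and filterByExpr of edgeR 4.0.16, with group and replicate number as terms and Benjamini-Hochberg adjustment at 0.05 over all transcripts tested. The study's methods give the filter, the weights and these terms. TMM was chosen here, and all transcript models were tested although the study took the longest of each gene. The 16 comparisons used the 16 pulldowns, the 16 inputs or, across fractions, all 32 libraries. In the fit of all 32 libraries, no term paired the pulldown and the input of the same lysate. Per-sample CPM used TMM factors over all 32 libraries, and correlations a prior count of 2 on the log2 scale. P-values measure the spread between these libraries, whose replicates were separate cultures by the study's methods.

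Replicate number pairs the libraries, since samples of a replicate were processed together by the study's methods. Deviations from group means over 7288 transcripts gave a mean r of 0.155 between inputs and 0.123 between pulldowns of equal number. For unequal numbers it was −0.049 and −0.038. Subtracting group means largely sets these negative values, so they are no separate comparison. Replicates of a group never agreed within sampling noise, with a chi-square of at least 39.7 per degree of freedom in 48 pairs.

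The members and lists were chosen with earlier results of these data known. Beside the 2 members, the rule named the 3 most similar transcripts of each and those at the threshold of the choosing contrast. As 0 of 51884 identifiers matched a gene table, no marker or pathway list was run, and the neuronal identity of the cultures was not checked against markers. Alternatives replaced the test (edgeR's quasi-likelihood test or DESeq2 1.42.0), the scaling (RLE, or totals without the 3 most abundant transcripts), the quality weights (none), the filter (none, or a mean CPM of 5), the replicate block (none) and the states (those of the descriptions), or left out 6 libraries dominated by uc009sgd.1 or each replicate. Equal weights with limma-trend, and the same differences in CPM on plain totals and in TPM, were added after the data were seen. The tests were also run on simulated counts without a replicate effect, which are not used as support here. Figures were made in Python 3.11.15 with matplotlib 3.10.9.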

Additional observations from a re-analysis of the deposited data

Results flagged for a closer look

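The change with depolarization differed between PSD95 and Pan inputs for uc009ozx.3, at −0.48 on the log2 scale by the interaction test in limma. Its change with depolarization also differed between pulldowns and inputs, at −0.53 for uc009ozx.3 and −0.30 for uc008cqz.1 by the same kind of test. All 3 differences were past the threshold with precision weights, and none was with equal weights. Those between pulldowns and inputs hold the pulldown values that chose the pair, so they are not independent of that choice. The inputs behind the first were shares of the same lysates as those pulldowns. On plain library totals and in TPM the means over replicates had the opposite sign for all 3 differences, but each mean was smaller than its replicate SD. No library stood apart from the other 3 of its group in any of 16 groups of levels, 8 for each transcript.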

How the results depend on the processing

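Of 300 tested values of the 2 transcripts under the 15 settings, 222 kept their direction and their side of the threshold, 64 lost a call, 13 gained one and 1 reversed. Of 180 values given as descriptions, 12 changed sign and 3 moved by more than the replicate SD. The cause of these shifts was not tested. Pulldown below input kept its call for uc008cqz.1 with both constructs and for uc009ozx.3 with PSD95 in all 15 settings. These calls also hold the pulldown values that chose the pair. Values below are log2 differences, and changes are depolarized minus resting.

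Means over replicates on plain totals and in TPM, both added after the data were seen, moved most. Given for uc009ozx.3 and then uc008cqz.1, pulldown over input with Pan was 0.19 and 0.17 on plain totals and 0.90 and 0.88 in TPM, and with PSD95 it was −0.53 and −0.48 on plain totals and −0.18 and −0.14 in TPM. The fraction contrast was 0.56 and 0.66 on plain totals and 1.01 and 1.12 in TPM. The average input change was −0.60 and −0.23 on plain totals and −0.97 and −0.60 in TPM, and the average pulldown change was −0.040 and 0.43 on plain totals and 0.046 and 0.52 in TPM. The pulldown ratio change was −0.36 and −0.20 on plain totals and 0.37 and 0.53 in TPM, and the input ratio change was 0.14 and 0.28 on plain totals and 0.51 and 0.64 in TPM. Each of these means was smaller than its replicate SD, with exceptions on plain totals only. The exceptions were pulldown over input of uc009ozx.3 with PSD95 and the average pulldown change of uc008cqz.1.

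The fraction contrast (pulldown change minus input change) was −0.36 for uc009ozx.3 and −0.25 for uc008cqz.1 with edgeR, −0.36 and −0.25 with equal weights, −0.30 and −0.18 under the stricter filter of mean CPM 5, and −0.47 and −0.29 with no replicate block, none of them past the threshold. For uc008cqz.1 its call was also lost with DESeq2 (−0.24), the states in the descriptions (−0.22), totals without the 3 most abundant transcripts (−0.17) and without the libraries dominated by uc009sgd.1 (−0.30).

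The average change in pulldowns lost its call with edgeR (−0.24 for uc009ozx.3 and 0.23 for uc008cqz.1), with equal weights (−0.24 and 0.23) and without the replicate block (−0.40 and 0.091), and for uc008cqz.1 with the states in the descriptions (0.085) and without the dominated libraries (0.082). In Pan pulldowns the change of uc009ozx.3 was above 0 with edgeR (0.069), DESeq2 (0.11), RLE (0.0064), the stricter filter (0.099), totals without the 3 most abundant transcripts (0.027) and equal weights (0.068). In PSD95 pulldowns that of uc008cqz.1 was above 0 with edgeR (0.0069), the stricter filter (0.024) and equal weights (0.010).

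In inputs the average change of uc008cqz.1 lost its call without the replicate block (0.39) and with the states in the descriptions (0.34), and that of uc009ozx.3 gained one with RLE (0.12), without quality weights (0.13) and without a filter (0.14). With PSD95 the change of uc008cqz.1 lost its call with edgeR (0.41), equal weights (0.41), without the replicate block (0.24) and with the states in the descriptions (0.20). With Pan its change lost the call with edgeR (0.56), without the replicate block (0.54) and with the states in the descriptions (0.48). The Pan change of uc009ozx.3 lost it with edgeR (0.26), equal weights (0.26), without the replicate block (0.26), with the states in the descriptions (0.30) and without the dominated libraries (0.36).

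The change of PSD95 over Pan in inputs lost its call for uc009ozx.3 with edgeR (−0.29), DESeq2 (−0.31), the stricter filter (−0.36), totals without the 3 most abundant transcripts (−0.36), no replicate block (−0.43), the states in the descriptions (−0.46), without the dominated libraries (−0.51) and with equal weights (−0.28). For uc008cqz.1 it gained one with RLE (−0.37), without quality weights (−0.38) and without a filter (−0.37). PSD95 over Pan in depolarized inputs gained a call without a filter (−0.17 for uc009ozx.3 and −0.23 for uc008cqz.1) and, for uc008cqz.1, without quality weights (−0.23). In resting inputs it gained one without a filter (0.17 for uc009ozx.3 and 0.14 for uc008cqz.1) and, for uc009ozx.3, with RLE (0.28). Pulldown over input of uc009ozx.3 with Pan was −0.36 without the replicate block, and the block decided no call among the tested results other than those named. Among the descriptions, the contrast that chose the pair had a limma adjusted p of 0.700 for uc009ozx.3 and 0.744 for uc008cqz.1 without the replicate block, and PSD95 over Pan in depolarized pulldowns had 0.773 and 0.789. The pulldown change had 0.059 with PSD95 for uc009ozx.3 and 0.318 with Pan for uc008cqz.1 without the block.

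When each replicate was left out, which leaves 3 a group, the fraction contrast ran from −0.58 to −0.27 for uc009ozx.3 and from −0.35 to −0.22 for uc008cqz.1. The average pulldown change ran from −0.45 to −0.26 and from 0.078 to 0.20, and the average input change from 0.061 to 0.19 and from 0.41 to 0.50. The Pan input change ran from 0.29 to 0.34 and from 0.58 to 0.63, and the PSD95 input change from −0.17 to 0.030 and from 0.24 to 0.38. For uc009ozx.3 the input ratio change ran from −0.50 to −0.31, the pulldown ratio change from −0.78 to −0.46, PSD95 over Pan in depolarized pulldowns from −0.54 to −0.34 and the Pan pulldown change from −0.061 to 0.043. The pulldown ratio change less that of inputs ran from −0.42 to 0.17 for uc009ozx.3 and from −0.23 to 0.080 for uc008cqz.1.

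Counts of calls over all transcripts also depended on the setting. For the contrast that chose the pair, limma called 7, edgeR 0 and DESeq2 765. For the fraction contrast the count was 56 and ran from 0 to 628, for the input change of PSD95 over Pan it was 14 and ran from 0 to 563, and for the average input change it was 1726 and ran from 8 to 2459. For the average pulldown change it was 4505 and ran from 303 to 4635, and for pulldown against input it was 7065 with PSD95 and 6320 with Pan, with ranges of 2209 to 7065 and 1530 to 7831. The lowest count of the pair was 525, so counting error was small beside the spread of replicates.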
